A study of Mus musculus with 12 samples.

Results

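The genotype by doxorubicin interaction was measured in mouse heart. It is the difference that doxorubicin (DOX) made in hearts labelled PDE10A knockout (KO) less the difference it made in wild-type (WT) hearts, on the log2 scale. A value above 0 means that DOX moved a gene upwards in KO relative to WT, and a value below 0 the reverse. All 12 libraries of the series enter it. They are 3 WT hearts after vehicle (mice 1, 2 and 3), 3 WT hearts after DOX (mice 21, 22 and 24), 3 KO hearts after vehicle (mice veh_3393, veh_3394 and veh_3395) and 3 KO hearts after DOX (mice 18, 19 and 20). All mice are C57BL/6J per the labels, and the protocol allows either sex. DOX was 1 intraperitoneal bolus of 15 mg/kg, and the protocol gives its duration as 7 days. The protocol also describes TP-10, a PDE10A inhibitor, and its vehicle of DMSO in β-cyclodextrin. No library is labelled with TP-10. Which alleles, age or knockout construct the mice carried is not given in the sources used here.

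PDE10A is a phosphodiesterase that hydrolyses the second messengers cAMP and cGMP. DOX is an anthracycline that poisons type II topoisomerases, produces reactive oxygen species and is known for injury to the heart muscle. The interaction asks whether the response of the heart to the drug differs between genotypes. It is built from 4 group means, so a gene can reach it because 1 group stands apart or because DOX moves the gene in opposite directions in the 2 genotypes.

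Facts of the libraries bear on every value that follows. Totals ran from 23846398 to 32921876 counts. The share of counts from the mitochondrial genome was lowest in WT vehicle mouse 2 (19.5%) and 24.4 to 33.6% in the other hearts. On the first principal component WT vehicle mouse 2 lay at -57.4, WT DOX mice 22 and 24 at 41.6 and 40.4, and WT DOX mouse 21 at 6.81. On the second, KO DOX mouse 18 (-44.3) and KO vehicle mouse veh_3394 (-39.3) were separate from the rest, and these 2 libraries carried the highest summed level of 14 atrial markers, 3938 and 4906 CPM (counts scaled to library size) against 1102 to 2653 CPM elsewhere. Pde10a itself, the targeted gene, was at 3.38, 1.00 and 1.86 CPM after WT vehicle and 2.7, 2.08 and 1.78 CPM after WT DOX. It was at 9.31, 11.9 and 9.13 CPM after KO vehicle and 8.27, 8.49 and 9.09 CPM after KO DOX. The count over the whole gene is therefore higher, not lower, in every library labelled KO. It does not show the loss of the enzyme, and without the position of the deletion it does not check the labels. All directions below rest on the labels. The interaction of Pde10a was -0.32 ± 0.44 (log2, standard error; adjusted p = 0.725 in edgeR's quasi-likelihood test). The titles number the KO vehicle hearts veh_3393 to veh_3395, far from the numbers 1 to 24 of the other 3 groups. Whether these animals had another origin is not stated, and such an origin cannot be told apart from the interaction.

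Of 14757 genes tested, 31 were called at an adjusted p under 0.05 (0.21%), 16 with a higher DOX difference in KO (0.108%) and 15 with a lower one (0.102%). At an unadjusted p under 0.05 there were 2365 genes (16%), where 738 would be reached with no difference. Among them are neutrophil genes, 2 glutathione transferases, receptors at the cell surface and transcription factors. In 30 of the 31, DOX had opposite signs in WT and KO: 15 were higher after DOX in WT and lower in KO, and 15 were lower in WT and higher in KO. The exception was Rflnb, lower after DOX in both. Over all genes tested, 38.3% had opposite signs. The 2 DOX differences make up the contrast that chose the genes, so this describes them and is no further test. The DOX difference alone was called in WT for 29 of the 31 (18.6% of all genes tested) and in KO for 0 of the 31 (0.0136% of all genes tested, which is 2 genes). The KO difference under vehicle was called for 21 of the 31 (2.88% of all) and that under DOX for 8 (0.42% of all). In the plot of the DOX difference in WT against that in KO, the called genes other than Rflnb lie in the 2 quadrants of opposite sign. The median size of their DOX difference was 0.96 in WT and 0.56 in KO, against 0.30 and 0.12 over all genes tested.

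**Figure D1:**
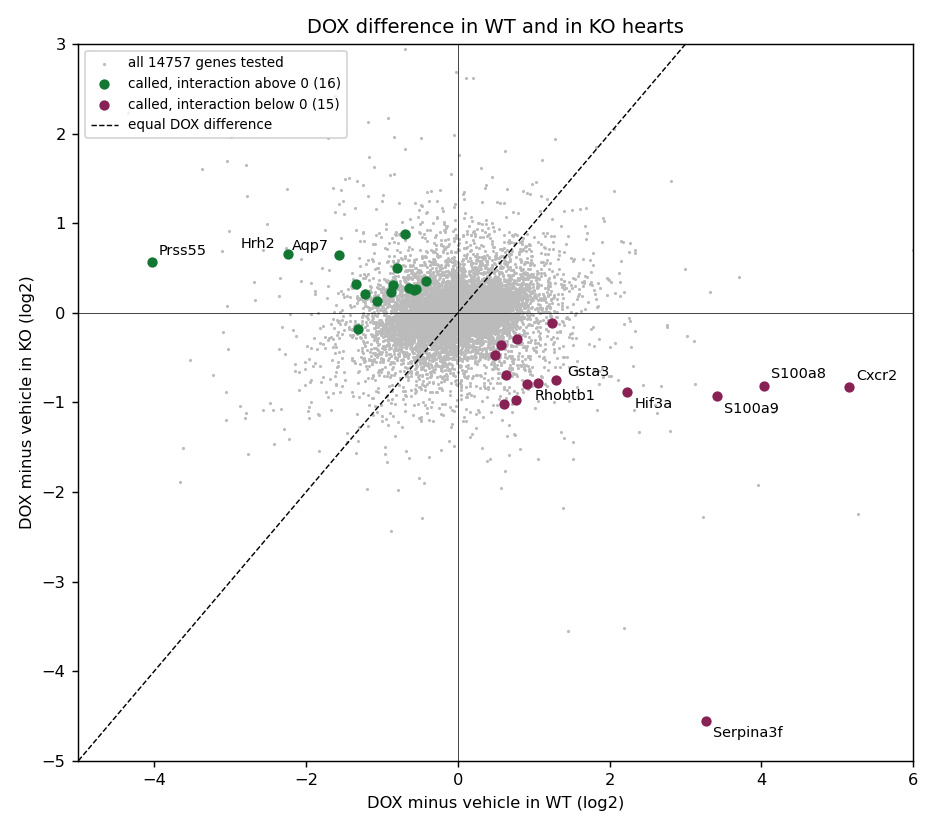
DOX minus vehicle in WT (horizontal, log2) and in KO (vertical, log2) for each gene tested; grey points are all 14757 genes, coloured points the called ones, and the dashed line marks an equal difference. All 31 called genes but Rflnb have opposite signs in the 2 genotypes; 12 genes lie outside the axes, among them 6430562O15Rik.

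The group means were then sorted for each gene. A group was said to set the difference where its mean log2 CPM was the highest or lowest and its gap to the nearest other mean was at least the range of the other 3. By this description, which involves no test, WT vehicle set 9 of the 31 called genes (29%), WT DOX 3 (9.68%), KO vehicle 2 (6.45%) and KO DOX 0. No single mean set the other 17 (54.8%). Over all genes tested the shares were 30.1% for WT vehicle, 16.8% for WT DOX, 5.72% for KO vehicle, 5.16% for KO DOX and 42.2% for no single mean. Among the 2365 genes at an unadjusted p under 0.05 they were 44%, 20.5%, 3.51%, 1.86% and 30.1%. WT vehicle was therefore the mean that stood apart most often in all 3 sets, and KO DOX the least often. All 17 called genes without a single mean were crossed: WT DOX and KO vehicle lay on one side, WT vehicle and KO DOX on the other. The other called genes had this order too, except Rflnb and 6430562O15Rik, so it is not particular to the 17. These means make up the contrast that chose the genes, so the order is no further test. Its share over all genes tested was not counted.

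**Figure D2:**
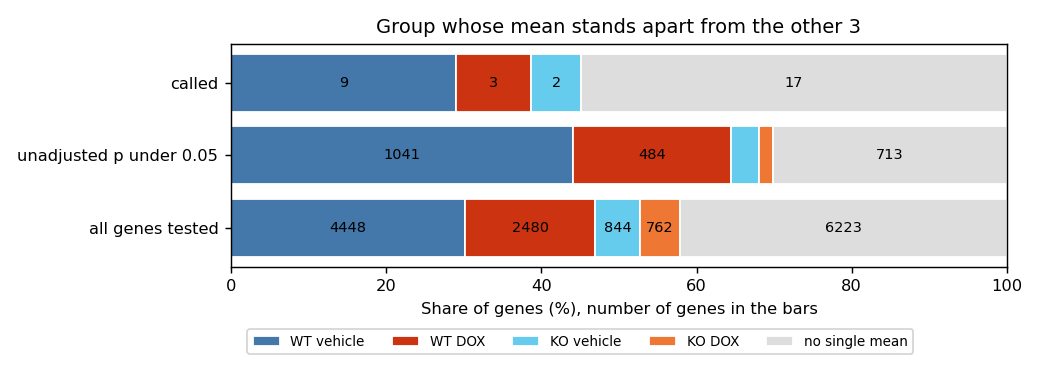
Share of genes (horizontal, %) by the group whose mean log2 CPM stands apart from the other 3, for all genes tested, genes at an unadjusted p under 0.05 and called genes; numbers in the bars count genes. WT vehicle sets 9 of the 31 called genes (29%, against 30.1% of all genes tested) and KO DOX none (against 5.16%). In 17 no single mean stands apart (54.8%, against 42.2%).

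Crossed genes that were high in WT DOX and KO vehicle came first by p. Rhobtb1 encodes an adaptor of cullin 3 ubiquitin ligases that acts on vascular tone. It lies on chromosome 10 from 69151434 to 69291791 on the plus strand (GENCODE M21, GRCm38). It was at 98.9, 80.3 and 118 CPM after WT vehicle and 173, 188 and 199 CPM after WT DOX. It was at 263, 228 and 198 CPM after KO vehicle and 134, 136 and 127 CPM after KO DOX. The WT libraries did not overlap, nor did the KO libraries, and WT vehicle was below the 9 others. The DOX difference was 0.91 in WT (adjusted p = 0.00887), -0.80 in KO (adjusted p = 0.132), and the interaction -1.71 ± 0.20 (log2, standard error; adjusted p = 0.0152). Rhobtb1 kept its call in 11 of 12 fits that each left out 1 library, and was lost without KO DOX mouse 20 (adjusted p = 0.0587). A930033H14Rik overlaps it on the other strand, and the strand setting of the counts is not given, so reads of the 2 cannot be told apart.

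Gsta3 encodes an alpha-class glutathione S-transferase, an enzyme that conjugates glutathione to electrophiles and is a classical target of the oxidative stress factor NRF2. Its levels were 4.14, 6.15 and 4.92 CPM after WT vehicle, 9.06, 13.4 and 14.9 after WT DOX, 14.6, 13.2 and 14.8 after KO vehicle and 8.31, 8.56 and 8.48 after KO DOX. WT vehicle set the difference, with each of its libraries below all 9 others. The interaction was -2.04 ± 0.25 (adjusted p = 0.0152), and KO was above WT under vehicle by 1.48 (adjusted p = 0.00281). Reads of closely related alpha-class transferases and of the antisense gene Gm28836 may have been counted here. Ifi205, an interferon-inducible gene of the p200 family that shares sequence with its neighbours, was at 9.66, 8.01 and 12.7 CPM, 19.3, 25.4 and 18.7 CPM, 25.5, 20.9 and 18.8 CPM, and 13.1, 14.4 and 10.5 CPM in the same order of groups. Its interaction was -1.84 ± 0.27 (adjusted p = 0.0288).

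Of the called genes, 5 have a RefSeq promoter window (250 bases before to 50 after the start, GRCm38.p6) that holds the core of the antioxidant response element, the letters TGACNNNGC on either strand. They are Rhobtb1, Gsta3, Ifi205, Il4ra and 6430562O15Rik, the last with an interaction of the opposite sign (8.61). The windows of the first 3, described above, are shown to place that match, which is in capitals, 5′ to 3′ on the gene's strand. They are chr10:69212407-69212706 (plus), chr1:21240335-21240634 (plus) and chr1:174031706-174032005 (minus). Rhobtb1 has 3 RefSeq windows, and only that shown held the core. This window lies inside the gene, after the start given above.
Rhobtb1: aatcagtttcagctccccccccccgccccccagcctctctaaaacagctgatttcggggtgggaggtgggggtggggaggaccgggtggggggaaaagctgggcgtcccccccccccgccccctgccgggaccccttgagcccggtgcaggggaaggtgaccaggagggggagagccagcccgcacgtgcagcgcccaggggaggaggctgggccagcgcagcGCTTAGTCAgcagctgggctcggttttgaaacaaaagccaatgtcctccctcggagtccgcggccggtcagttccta
Gsta3: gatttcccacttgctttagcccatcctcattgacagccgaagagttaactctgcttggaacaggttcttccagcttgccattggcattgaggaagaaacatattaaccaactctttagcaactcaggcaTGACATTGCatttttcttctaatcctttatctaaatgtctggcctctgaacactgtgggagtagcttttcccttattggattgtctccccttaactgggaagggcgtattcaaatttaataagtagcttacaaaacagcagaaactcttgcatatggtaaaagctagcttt
Ifi205: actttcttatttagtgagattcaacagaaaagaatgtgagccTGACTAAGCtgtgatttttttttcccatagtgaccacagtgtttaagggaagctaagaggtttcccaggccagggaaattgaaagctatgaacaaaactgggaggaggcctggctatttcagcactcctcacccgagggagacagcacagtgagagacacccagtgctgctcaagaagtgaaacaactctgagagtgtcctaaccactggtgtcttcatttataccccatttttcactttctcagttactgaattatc
Of 35 RefSeq promoters of 24 called genes, 5 held this core, against 12.4% of all 32851 promoters and 14.3% of the 14074 promoters of tested genes, so the share among called genes is that of the background. The cAMP response element TGACGTCA was in none of the 35 (1.79% of all promoters and 2.87% of those of tested genes). Its shorter form TGACG was in 2 (20.8% and 29.4%) and the E-box CACGTG in 1 (7.15% and 9.61%). The glucocorticoid element core ACANNNTGT was in 5, from 4 genes (6.85% of all and 4.49% of those of tested genes). All motifs were read on both strands, TGACG also lies within TGACGTCA, and a match is only a run of letters in this window.

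Slc39a14, a zinc and iron importer of the plasma membrane, was at 67.2, 56.8 and 64.5 CPM after WT vehicle, 97.9, 105 and 77.2 after WT DOX, 88.3, 82.4 and 86.5 after KO vehicle and 65.2, 66.2 and 68.7 after KO DOX. Its interaction was -0.94 ± 0.16 (adjusted p = 0.0435). It was chosen after its values were seen, as were the other called genes outside the naming rule, Serpina3f, Cxcr2, Prss55, Hrh2, 6430562O15Rik and C130074G19Rik. Gda (guanine deaminase, of purine breakdown) had an interaction of -1.33 ± 0.21 and was highest after KO vehicle, with 24.8, 30.4 and 29.1 CPM against 24.3, 29.7 and 22.9 CPM after WT DOX, so these 2 groups overlap. Ttpal, a relative of the tocopherol transfer protein, was at 14.4 to 17.9 CPM after WT vehicle and 15.2 to 16.6 after KO DOX, against 22.6 to 23.4 CPM after WT DOX and 21.4 to 23.2 after KO vehicle, with an interaction of -0.96 ± 0.14. Phyhd1, of the phytanoyl-CoA dioxygenase family, had -1.74 ± 0.29.

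Il4ra, a subunit of the interleukin 4 and 13 receptors, was lowest after KO DOX. It was at 13.6, 13.1 and 13.4 CPM there, against 18.7, 18.8 and 21.8 after WT vehicle, 24, 42.2 and 24.2 after WT DOX and 33.2, 25.1 and 22.7 after KO vehicle. The 3 KO DOX libraries lie below the 9 others, yet the gap to WT vehicle was smaller than the range of the other 3 means. Its interaction was -1.63 ± 0.29, and its adjusted p of 0.04997, shared with Tpst1, is the highest among called genes. Setbp1 and Aff1, chromatin-associated nuclear proteins, were set by WT vehicle instead. Setbp1 was at 4.94, 3.56 and 4.96 CPM there and between 9.02 and 12.2 CPM in all 9 others. Aff1, a scaffold of the super elongation complex, was at 44.3, 32.9 and 43.6 CPM there and between 58.1 and 80.4 CPM in the others. Their interactions were -1.35 ± 0.21 and -1.07 ± 0.18. In both, the WT DOX libraries overlapped those of KO vehicle. The KO difference under DOX was -0.03 (adjusted p = 0.949) for Setbp1 and -0.18 (adjusted p = 0.539) for Aff1.

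Neutrophil genes had large negative values. S100a8 and S100a9 encode the 2 chains of calprotectin, which neutrophils hold in their cytoplasm, and the genes lie close together on chromosome 3. S100a9 was at 0.668, 0.691 and 1.31 CPM after WT vehicle and 3.27, 14.7 and 10.5 after WT DOX, then 4.26, 3.28 and 2.52 after KO vehicle and 1.58, 1.57 and 2.12 after KO DOX. S100a8 was at 0.445, 0.311 and 0.595 CPM after WT vehicle and 2.23, 10.7 and 9.10 after WT DOX, then 2.32, 1.51 and 1.37 after KO vehicle and 0.591, 1.35 and 1.00 after KO DOX. WT DOX mice 22 and 24 were the high libraries, and WT DOX mouse 21 lay within the range of KO vehicle for both genes. The interactions were -4.35 ± 0.67 and -4.84 ± 0.77 (both adjusted p = 0.0288). The KO difference under DOX was called for both, at -2.43 (adjusted p = 0.0411) and -2.90 (adjusted p = 0.036). Each was called in 3 of the 12 fits that left out 1 library, while the interaction stayed between -4.75 and -3.89 for S100a9 and between -5.27 and -4.47 for S100a8.

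Cxcr2, the receptor that draws neutrophils to chemokines, had 1, 0 and 1 counts after WT vehicle, 12, 34 and 55 after WT DOX, 14, 10 and 9 after KO vehicle and 4, 8 and 7 after KO DOX. The ratio of WT DOX to WT vehicle was 43 with a counting interval of 11.6 to 360 (95%, exact binomial, counting error only), so its interaction of -5.98 ± 0.93 has no firm size. Of 17 neutrophil markers listed 10 were tested, 3 were called lower (0.102% of all genes tested were), 8 had an unadjusted p under 0.05, and all 10 values were negative. Counts at an unadjusted p under 0.05 in this list and those below are to be read beside the 16% of all genes tested that reached it. The list's median was -4.59, beside -0.0025 over all genes tested. The 7 not tested, such as Ly6g, Ngp, Camp and Mpo, reached at most 22 counts in any library. A scarce marker such as Cxcr2 could pass the filter on counts through the libraries where it was high. The shared sign and the median of the tested markers are therefore a description and no test. Summed over the tested markers, levels were 7.08 to 10.1 CPM after WT vehicle, 15.8, 113 and 56.9 CPM after WT DOX, 15.2 to 21.7 CPM after KO vehicle and 12.2 to 19.5 CPM after KO DOX. These sums lean on Lcn2, which reached 1845 counts in a library, where S100a9 reached 405. The median log2 level over the list, relative to each gene's mean of the 4 groups, depends less on 1 gene. It was 2.60 and 2.12 in WT DOX mice 22 and 24 and at most 0.69 elsewhere. The list therefore divides WT DOX mice 22 and 24 from the other 10 libraries. In whole heart, more cells of a type and more RNA per cell cannot be told apart.

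Hif3a and Serpina3f had the crossed order at low levels. Hif3a, a hypoxia-inducible factor subunit that is also a glucocorticoid target, was at 1.6, 0.933 and 1.82 CPM after WT vehicle, 4.35, 8.99 and 7.03 after WT DOX, 6.01, 4.79 and 4.05 after KO vehicle and 2.52, 3.84 and 1.70 after KO DOX. Its interaction was -3.11 ± 0.49 (adjusted p = 0.0288). It was the 1 called gene of 21 glucocorticoid targets tested, of which 12 had an unadjusted p under 0.05, all 12 negative. The median of that list was -0.93 (0.62 for DOX in WT and -0.32 in KO). Serpina3f, of the serine protease inhibitor cluster on chromosome 12, had 0, 2 and 2 counts after WT vehicle, 9, 24 and 15 after WT DOX, 53, 27 and 20 after KO vehicle and 2, 1 and 1 after KO DOX. Its fitted interaction of -7.82 ± 0.96 rests on 4 counts in each of the 2 low groups, and its near-identical neighbours may share reads.

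**Figure D3:**
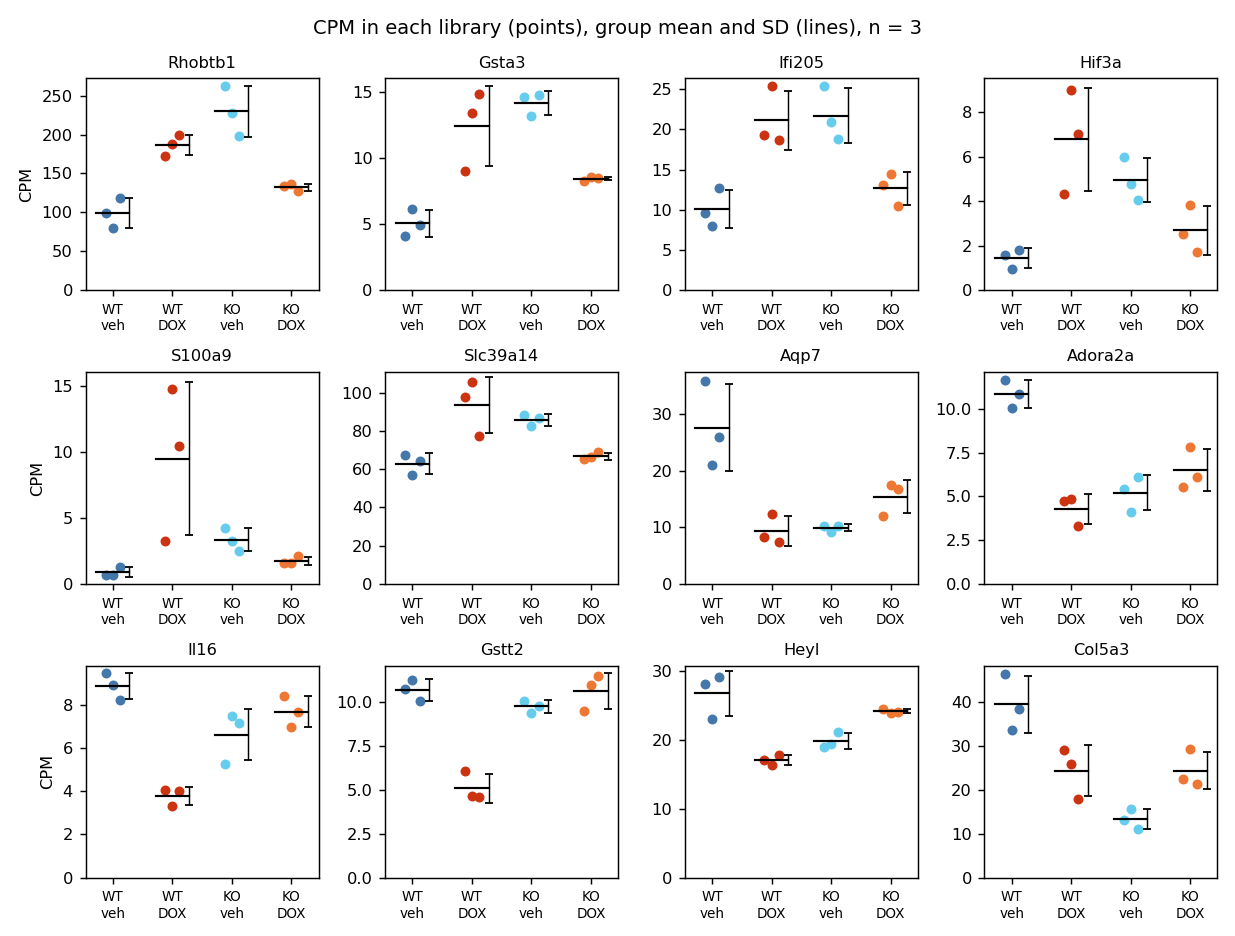
CPM (vertical) in each of 12 libraries for 12 called genes; points are libraries, horizontal lines group means and vertical bars the SD (n = 3). In the first 6 genes WT DOX and KO vehicle have the highest means, as for Rhobtb1 with 173 to 199 and 198 to 263 CPM; in Aqp7 to Heyl WT DOX has the lowest mean, and in Col5a3 KO vehicle has it.

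Of the genes with a higher DOX difference in KO, a channel and 3 receptors are given first. Aqp7 encodes an aquaglyceroporin that passes water and glycerol, mainly in adipocytes and capillaries. It was at 35.9, 21 and 25.9 CPM after WT vehicle, 8.20, 12.3 and 7.40 after WT DOX, 10.3, 9.17 and 10.2 after KO vehicle and 12.0, 17.5 and 16.7 after KO DOX. WT vehicle set the difference, above all 9 others, and the interaction was 2.21 ± 0.32 (adjusted p = 0.0288). DOX lowered it in WT by 1.57 on the log2 scale, and the KO difference under vehicle was -1.48. Adora2a, the adenosine receptor that couples to Gs and raises cAMP, was at 11.7, 10.0 and 10.8 CPM after WT vehicle and between 3.31 and 7.83 CPM in all 9 others. Its interaction was 1.66 ± 0.27 (adjusted p = 0.0341).

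Adora2a was the 1 called gene of 39 tested that handle cAMP or cGMP (cyclases, receptors, phosphodiesterases, kinases and exchange factors). Of these, 11 had an unadjusted p under 0.05, 5 higher and 6 lower, and the list's median was -0.08, or -0.16 without WT vehicle mouse 1 and -0.01 without WT DOX mouse 21. Hrh2, the histamine receptor that also couples to Gs, was called outside that list. It was at 2.94, 1.97 and 1.47 CPM after WT vehicle, 0.467, 0.401 and 0.461 after WT DOX, 0.646, 0.830 and 0.896 after KO vehicle and 0.748, 1.61 and 1.39 after KO DOX, with an interaction of 2.91 ± 0.49 (adjusted p = 0.0388). Lpar6, a receptor of lysophosphatidic acid inside an intron of Rb1, was at 5.68 to 6.51 CPM after WT DOX, below the 9 others (7.79 to 13.6 CPM), with an interaction of 1.12 ± 0.19.

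Il16, Flt3l and Gstt2 were lowest in WT DOX. Il16, a cytokine that attracts CD4+ cells, was at 4.06, 3.31 and 4.00 CPM after WT DOX against 8.21 to 9.44 after WT vehicle, 5.25 to 7.47 after KO vehicle and 6.95 to 8.39 after KO DOX. Its interaction was 1.43 ± 0.22, and KO exceeded WT under DOX by 1.01 (adjusted p = 0.022). Flt3l, the ligand that supports dendritic cell growth, was at 3.60 to 4.42 CPM after WT DOX and 4.91 to 8.05 CPM in the others, with 1.30 ± 0.19. Gstt2, a theta-class glutathione transferase, was set by WT DOX, at 6.04, 4.66 and 4.58 CPM there against 9.36 to 11.4 CPM in all 9 others. Its interaction was 1.196 ± 0.18 (adjusted p = 0.0288). The KO difference was -0.13 under vehicle (adjusted p = 0.534) and 1.06 under DOX (adjusted p = 0.00485). The 2 glutathione transferases thus had interactions of opposite sign. Of 36 antioxidant and NRF2 targets tested, Gsta3 was the 1 called, 13 had an unadjusted p under 0.05 (8 lower, 5 higher), and the median was -0.17, or 0.00 without WT DOX mouse 24.

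Heyl, a transcriptional repressor downstream of Notch in vascular smooth muscle, was at 28.1, 23.0 and 29.1 CPM after WT vehicle, 17.1, 16.4 and 17.8 after WT DOX, 19, 19.5 and 21.2 after KO vehicle and 24.5, 23.9 and 24.1 after KO DOX. Its interaction was 0.93 ± 0.14 (adjusted p = 0.0288). Elk3, an ETS factor of endothelial cells, had 0.83 ± 0.13, with 44.2 to 46.8 CPM after WT vehicle, 29.2 to 34.2 after WT DOX, 29.0 to 33.8 after KO vehicle and 36.7 to 41.0 after KO DOX. Cdc42ep3, a CDC42 effector that binds septins, had 0.78 ± 0.14. Neither KO nor WT libraries overlapped between treatments in these 3 genes.

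Col5a3, a fibrillar collagen V chain, was set by KO vehicle. It was at 46.5, 33.7 and 38.5 CPM after WT vehicle, 29.2, 26.0 and 17.9 after WT DOX, 13.2, 15.6 and 11.1 after KO vehicle and 22.5, 29.4 and 21.4 after KO DOX. The KO difference was -1.57 under vehicle (adjusted p = 0.0032) and 0.01 under DOX (adjusted p = 0.993), with an interaction of 1.57 ± 0.28 (adjusted p = 0.0481). The other gene set by KO vehicle was 6430562O15Rik, with 0 counts in all 3 KO vehicle libraries, 57, 71 and 67 after WT vehicle, 48, 39 and 28 after WT DOX and 15, 12 and 46 after KO DOX. Against a limit of 3 counts over the group, its level was at least 23.6-fold higher in KO DOX and at least 64.7-fold higher in WT vehicle. The fitted interaction of 8.61 is no bound, and Mrps27 overlaps the gene. Rflnb (refilin B, an actin organiser) and Tpst1 (tyrosylprotein sulfotransferase, of the Golgi) were set by WT vehicle. Rflnb was at 48.1, 64.8 and 48.7 CPM there and 19.2 to 29.4 CPM elsewhere, and Tpst1 at 15.9, 21.4 and 17.7 CPM there and 8.98 to 13.1 CPM elsewhere. Their interactions were 1.13 ± 0.20 and 1.17 ± 0.21. Prss55, a serine protease, had 16, 37 and 24 counts after WT vehicle and at most 7 in any other library, with an interaction of 4.60 ± 0.72 of uncertain size. The uncharacterised C130074G19Rik had 0.82 ± 0.14.

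The order of the values left no gap at the threshold. Just outside it, several genes shared an adjusted p of 0.052, among them Lrrc10 (-0.85), Trpm4 (0.77) and Vegfc (1.52). Wee1 (-1.26), a kinase that holds cells before mitosis, was another. These 4 are outside the naming rule and were chosen after their values were seen. Nr1d1 (1.89), which encodes the clock repressor REV-ERBα, was also there. Nr1d1 was at 146, 94.0 and 106 CPM after WT vehicle, 77.4, 43.2 and 38.4 after WT DOX, 68.7, 82.4 and 57.8 after KO vehicle and 108, 136 and 111 after KO DOX. Arntl, whose product BMAL1 drives Nr1d1, was at 13.1, 13.0 and 8.57 CPM after WT vehicle, 8.09, 15.7 and 9.70 after WT DOX, 0.95, 1.06 and 1.92 after KO vehicle and 4.02, 8.27 and 3.12 after KO DOX. KO vehicle was thus lowest for Arntl, and the interaction was 2.04 (adjusted p = 0.141). Of 20 clock genes tested none was called, 10 had an unadjusted p under 0.05 (7 lower, 3 higher), and 8 differed between KO and WT under vehicle (2.88% of all genes tested did). The time of day at which hearts were taken is not given, and its part in any of these values was not tested.

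Genes best known from anthracycline injury and cardiac stress did not pass the test. Myh7, the fetal myosin heavy chain, was at 70.5 to 140 CPM after WT vehicle and 2531 to 8073 after WT DOX, and at 74.7 to 240 CPM after KO vehicle and 761 to 2709 after KO DOX. DOX therefore raised it in WT by 5.73 (log2, adjusted p = 0.00468), the difference in KO was 3.43 (adjusted p = 0.132), and the interaction was -2.30 ± 0.75 (adjusted p = 0.214). Cdkn1a, the p53-induced cell cycle inhibitor p21, was at 30.5, 49.2 and 53.6 CPM after WT vehicle, 87.4, 180 and 118 after WT DOX, 24.7, 15.0 and 12.2 after KO vehicle and 27.9, 31.4 and 19.8 after KO DOX. WT DOX set it, and the interaction was -0.93 ± 0.44 (adjusted p = 0.322). In the same edgeR fit, the KO difference of Cdkn1a was called under both treatments. It was -1.36 under vehicle (adjusted p = 0.0447) and -2.285 under DOX (adjusted p = 0.0155). Top2a, which encodes a DOX target enzyme, had 0.95 ± 0.73 (adjusted p = 0.518). For the natriuretic peptides the values were -1.37 ± 1.14 for Nppa (adjusted p = 0.548) and 1.06 ± 0.53 for Nppb (adjusted p = 0.339). KO vehicle mouse veh_3394 had Nppa at 877 CPM, with the other KO vehicle hearts at 87.5 and 79.6. Of 38 p53 targets tested none was called, 7 had an unadjusted p under 0.05, a share near the 16% of all genes tested, and the median was -0.12.

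The only 2 genes whose DOX difference was called in KO, Icosl and Slc41a3, also missed the threshold for the interaction. Icosl, the ligand of the T cell costimulator ICOS, was at 19.3, 16.1 and 14.3 CPM after KO vehicle and between 6.81 and 10.4 CPM in all 9 others, with an interaction of -0.90 ± 0.21 (adjusted p = 0.104). Slc41a3, a magnesium transporter, was at 26.5, 21.6 and 19 CPM after KO vehicle and 46.1 to 82.0 CPM in the others, with 0.91 ± 0.23 (adjusted p = 0.129). For both, KO vehicle was the group that stood apart.

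Respiratory chain genes showed many small values of one sign. None of 78 nuclear subunits of oxidative phosphorylation was called, 41 had an unadjusted p under 0.05 (16% of all genes tested had), all 41 higher, and the list's median was 0.47. WT vehicle set 61 of the 78, where it set 30.1% of all genes tested. Ndufa13, a complex I subunit, was at 458, 762 and 566 CPM after WT vehicle, 382, 318 and 287 after WT DOX, 390, 377 and 376 after KO vehicle and 350, 367 and 369 after KO DOX, with an interaction of 0.78 ± 0.23 (adjusted p = 0.173). Summed levels were 46880, 67010 and 52170 CPM after WT vehicle and 37400 to 45790 CPM in all 9 others. WT vehicle mouse 2 was the highest, and without it the median was 0.30. Of 68 mitochondrial ribosomal proteins 0 were called, with 24 at an unadjusted p under 0.05, all higher, and a median of 0.36, or 0.22 without WT vehicle mouse 2. For 76 cytosolic ribosomal proteins the median was 0.27 and fell to 0.03 without that library. The depth of this library was within the range of the others, and the part of its lower mitochondrial share in these values was not tested.

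Lists of cells and vessels mostly had positive medians with no called member. Endothelial markers (31 tested) had a median of 0.43, with 13 at an unadjusted p under 0.05 higher and 1 lower. Egfl7, secreted by endothelial cells, had 1.16 ± 0.24 (adjusted p = 0.0727). Smooth muscle and pericyte markers (19) had a median of 0.64, with 10 higher at an unadjusted p under 0.05, among them Kcnj8 (0.67 ± 0.15, adjusted p = 0.0895), a potassium channel subunit of pericytes. MHC class II genes (8) had a median of 1.65, all positive, with 1 at an unadjusted p under 0.05. Their summed level was 209 to 438 CPM after WT vehicle, 107, 13.8 and 9.70 CPM after WT DOX, 104 to 125 CPM after KO vehicle and 35.6 to 62.0 CPM after KO DOX. WT DOX mouse 21 was again nearer to the other groups than mice 22 and 24, and the median was 3.67 without it and 1.15 without mouse 24. Erythroid markers (9) had a median of 4.72 from near-empty libraries: Hbb-bs, a beta globin, had 2, 0 and 0 counts after WT DOX and 6 in KO DOX mouse 18, but 2750 and 721 in KO DOX mice 19 and 20 (10.5, adjusted p = 0.123).

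Interferon response genes (45 tested, Ifi205 called) had a median of -0.33. The NR4A and CREB response genes (13) had -0.69, acute phase, cytokine and chemokine genes (29) -0.71 and macrophage and monocyte markers (26) -0.27, with none called. Most list medians, these included, moved by over 1.5 times when 1 library was left out: the interferon median was -0.10 without WT DOX mouse 22 and -0.52 without mouse 24, that of NR4A and CREB response genes -0.29 without WT DOX mouse 22, that of acute phase genes -0.38 without KO DOX mouse 19, and that of macrophage markers -0.15 without WT vehicle mouse 1 and -0.76 without mouse 2. Nr4a3, a nuclear receptor induced by cAMP, was at 14.1, 41.4 and 17.2 CPM after WT DOX and 2.44, 1.65 and 4.16 CPM after KO DOX, against 4.64 to 12.0 CPM under vehicle in either genotype, with -2.79 ± 0.67 (adjusted p = 0.118). Irs2, the insulin receptor adaptor, was at 21.4, 161 and 45.2 CPM after WT DOX and 8.41 to 14.0 CPM in all 9 others, with -2.90 ± 0.76 (adjusted p = 0.138). Without WT DOX mouse 22, its highest library, the value was -1.72, and without WT DOX mouse 21 it was -3.35 and called (adjusted p = 0.0129). The median of atrial markers (14) rested on 2 libraries: it was 0.23, -1.54 without KO DOX mouse 18 and 2.75 without KO vehicle mouse veh_3394. Fibroblast and matrix genes (44) had 0.46 and 0.12 without KO DOX mouse 18.

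**Figure D4:**
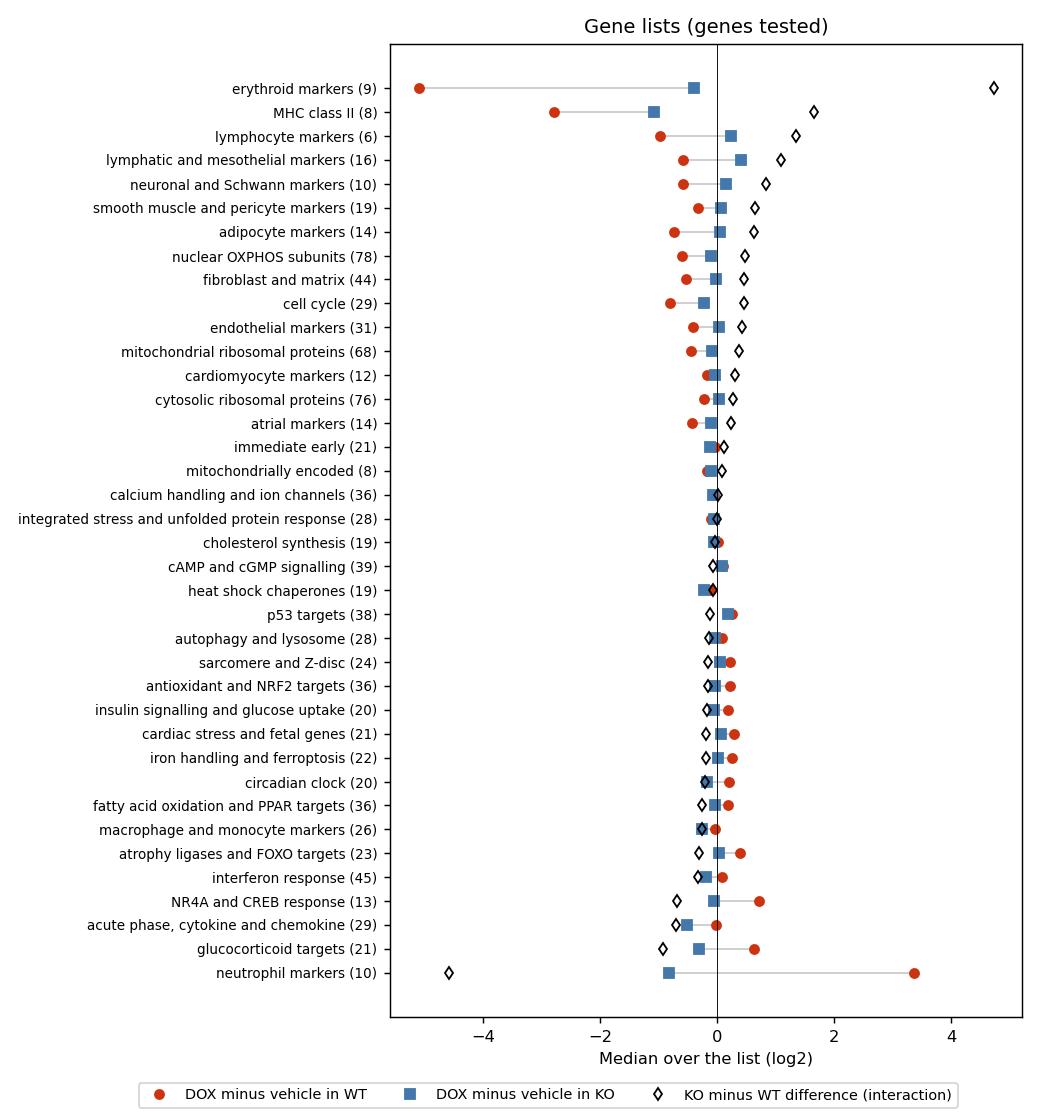
Median log2 value (horizontal) of each of 38 gene lists, with the number of genes tested in brackets; circles are the DOX difference in WT, squares that in KO and open diamonds the interaction. The squares lie nearer to 0 than the circles in 31 of the 38 lists. Over all genes tested, the DOX difference was also larger in size in WT than in KO for 75.1%, so this is not particular to the lists. Neutrophil markers (-4.59) and erythroid markers (4.72) have the medians farthest from 0.

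How far the calls rest on single libraries is shown by leaving each out. All 31 called genes kept their sign, with an unadjusted p under 0.05, in each of the 12 fits. They were chosen by small p in the same libraries, most of which each fit reuses, so this is no independent support. None of the 31 stayed called in all 12 fits: Rhobtb1 did in 11, Serpina3f in 10 and Gsta3 in 7. The number called ran from 0 without KO DOX mouse 20 to 515 without WT DOX mouse 21, in which all 31 were still called. Leaving out a library moved the estimate by more than 1 standard error in 2 of the 31 called genes, Phyhd1 and Il4ra, as the plot of ranges shows. The 8 libraries whose titles carry a suffix 1, the meaning of which is not given, hold only 1 WT vehicle heart (mouse 1). The interaction there rests on that 1 heart, so only sizes are given: Rhobtb1 was at -1.65, Gsta3 at -2.49 and S100a9 at -4.95. The libraries without the suffix hold no KO DOX heart and give no interaction. Without KO DOX mouse 18 and KO vehicle mouse veh_3394, 2 genes were called, neither among the 31, while Rhobtb1 was at -1.71 (adjusted p = 0.0623) and S100a9 at -4.29 (adjusted p = 0.0711).

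**Figure D5:**
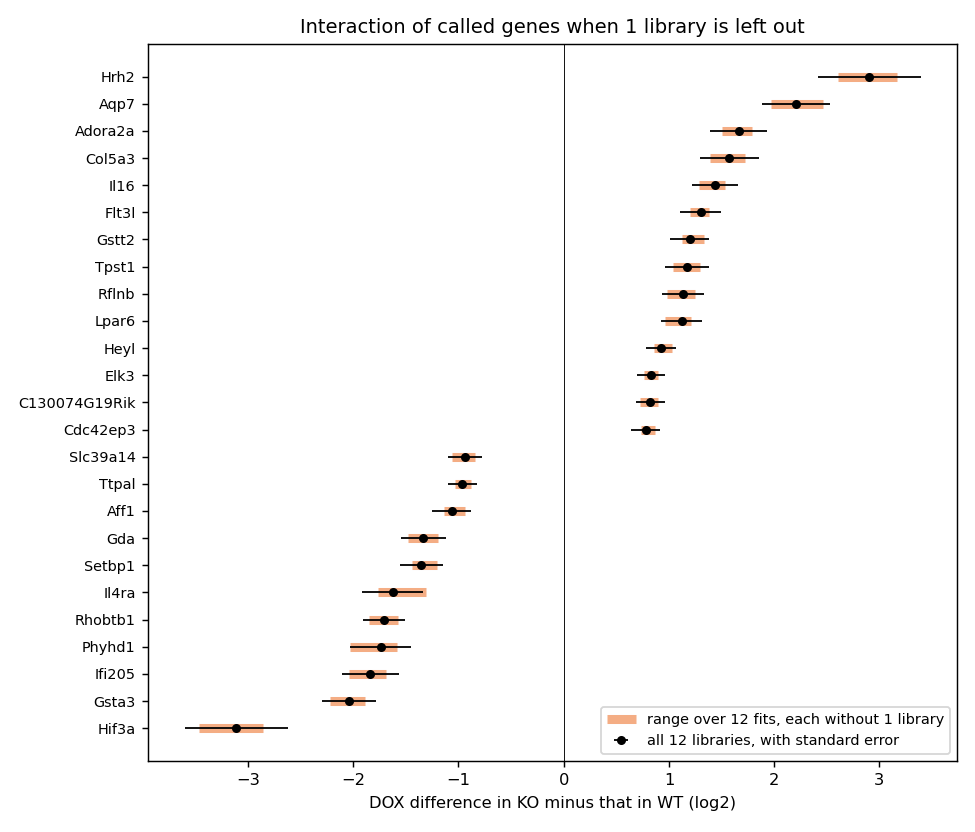
Interaction (horizontal, log2) of the 25 called genes with a size under 4; points are the fit on all 12 libraries with its standard error, and bars span the 12 fits that each left out 1 library. No bar reaches 0, and for Rhobtb1 it runs from -1.85 to -1.58.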

How the data were processed

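Per the labels' protocols, polyadenylated RNA of heart was made into stranded libraries with dUTP marking and sequenced on a NextSeq. For each library the authors deposited a table of raw counts, whole numbers for 55453 gene symbols. Per the submitters' processing notes the tools include fastp (0.20.0), STAR (2.7.0f) and featureCounts of Subread (1.6.4), with no roles given. Build, annotation, strand option and handling of multi-mapping reads have no entry there (not given in the sources used here). Hence overlapping, antisense and near-identical genes are uncertain. No column was left out (0).

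Counts were used as deposited in R 4.3.3. filterByExpr by group kept 14757 genes, TMM scaled the libraries, and edgeR 4.0.16 fitted a quasi-likelihood model with 1 mean per group to all 12 libraries, and called genes at 0.05 after Benjamini-Hochberg adjustment over every gene tested. The 4 groups share the spread because 3 libraries a group leave few degrees of freedom; the biological coefficient of variation was 17.5%. The mice of a group are separate animals by number, no 2 libraries agreed within sampling noise (the smallest median chi-square per gene was 1.34), and p-values measure the spread between them. Numbers differ between groups, so nothing is paired. CPM use TMM-scaled library sizes, group means for sorting are of log2 CPM (prior count 2), and a standard error is the log2 value divided by the square root of its F. List values are counts and medians, with no set test. Intervals and limits for low counts cover counting error only.

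Members, the 38 gene lists and the naming rule were chosen with earlier results of these data known. The rule takes, at a mean log2 CPM of at least 1, the 12 highest and 12 lowest called interactions without Xist, Y-linked and clone-type names, up to 2 called members of each list or otherwise its member with the smallest p, and 10 fixed genes. Symbols were matched to GENCODE M21 on GRCm38 (98.4% found) for positions and overlaps only. The test was checked on 12 simulated libraries with changes placed in KO DOX. Changed genes were drawn from those with a mean of at least 2 CPM, and all other genes had no group difference. Detection at lower levels was not checked. It called 47% of 100 genes changed by a log2 size of 1 and 98% of 100 changed by 2. It also called 5 unchanged genes. A gene that missed the threshold can thus still differ. Alternatives were DESeq2's size factors, no scaling, no filter, 1 CPM or more in 3 libraries as the filter, DESeq2 1.42.0, voom in limma 3.58.1 with quality weights, the title suffix as a covariate and each library left out. Fits on the libraries with the title suffix 1 and without KO DOX mouse 18 and KO vehicle mouse veh_3394 were chosen after seeing the data. Some results for single genes are left out of the text.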

Additional observations from a re-analysis of the deposited data

Results flagged for a closer look

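The DOX effect differed between genotypes, by the test of that difference itself, for the 31 called genes (values are log2, with the WT effect taken from the KO effect). Those with a lower effect in KO were Serpina3f (-7.82), Cxcr2 (-5.98), S100a8 (-4.84), S100a9 (-4.34), Hif3a (-3.11), Gsta3 (-2.04), Ifi205 (-1.84), Phyhd1 (-1.74), Rhobtb1 (-1.71), Il4ra (-1.62), Setbp1 (-1.35), Gda (-1.33), Aff1 (-1.06), Ttpal (-0.96) and Slc39a14 (-0.94). Those with a higher effect in KO were 6430562O15Rik (8.61), Prss55 (4.60), Hrh2 (2.90), Aqp7 (2.21), Adora2a (1.66), Col5a3 (1.57), Il16 (1.43), Flt3l (1.30), Gstt2 (1.196), Tpst1 (1.17), Rflnb (1.13), Lpar6 (1.12), Heyl (0.93), Elk3 (0.83), C130074G19Rik (0.82) and Cdc42ep3 (0.78). The sizes for 6430562O15Rik, Serpina3f, Cxcr2 and Prss55 rest on groups with few or no counts. Groups of 3 libraries were not examined for single outlying libraries by a set rule.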

How the results depend on the processing

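The count of called genes moved with the processing and with single libraries. The 31 called genes kept their sign in each of 21 alternatives that tested them. Their unadjusted p also stayed under 0.05, leaving aside the libraries with title suffix 1, where WT vehicle is 1 heart. The genes were chosen by small p in the same libraries, so this is no independent support. With at least 1 CPM in 3 libraries as the filter, 28 of them were tested. Against 31 called with all libraries, 30 were called with DESeq2's size factors, 32 with that filter and 24 with the title suffix as a covariate. The count was 51 without scaling, 366 with DESeq2, 1093 without a filter and 2048 with limma-voom and quality weights, and the cause of these was not tested. Of the 31, 29, 28, 31 and 31 were among them, in that order. Leaving out 1 library in turn gave 0 to 515 calls: 52, 8 and 1 without WT vehicle mice 1, 2 and 3, 515, 3 and 6 without WT DOX mice 21, 22 and 24, 2, 3 and 2 without KO vehicle mice veh_3393, veh_3394 and veh_3395, and 72, 8 and 0 without KO DOX mice 18, 19 and 20, where 1622 genes had an unadjusted p under 0.05. The libraries with title suffix 1 gave 11 calls, and the set without KO DOX mouse 18 and KO vehicle mouse veh_3394 gave 2; both hold fewer libraries. Signs turned only for genes that were not called. Over the fits that left out 1 library, Pde10a ran from -0.846 to 0.0306 and mt-Nd6 from -0.0705 to 1.02, each turning without WT vehicle mouse 2, and Nppa from -1.972 to 0.685, turning without KO vehicle mouse veh_3394. Nppa was at 0.229 without that library and KO DOX mouse 18. In the libraries with the title suffix Nppb was at -0.0577, mt-Nd6 at -0.0858 and Pde10a at 0.528. Depth limits the sizes of Cxcr2, Serpina3f, Prss55 and 6430562O15Rik, where a group had few or no counts. No paired analysis was possible because mouse numbers differ between the groups.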

Other observations

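Lists of heart muscle function had no called member; the median over all genes tested was -0.0025. Cardiomyocyte markers (12) had a median of 0.30 (0.17 without WT DOX mouse 22), with 5 higher and 1 lower at an unadjusted p under 0.05. Of 24 sarcomere and Z-disc genes, 6 had an unadjusted p under 0.05, 5 of them higher, with a median of -0.17, which was -0.03 without WT DOX mouse 24. Tcap, the Z-disc cap of titin, was at 1230, 1656 and 1762 CPM after WT vehicle, 924, 682 and 666 after WT DOX, 1608, 1634 and 1236 after KO vehicle and 1199, 1306 and 1314 after KO DOX, so WT DOX lay below the 9 others (interaction 0.80 ± 0.24, adjusted p = 0.183). Calcium handling and ion channel genes (36) had a median of 0.01, and between -0.16 and 0.11 without 1 library.

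Fat handling genes did not move as one. Plin4, a lipid droplet coat protein, was at 313, 542 and 519 CPM after WT DOX and 150 to 332 CPM in the other groups (-1.45 ± 0.32, adjusted p = 0.0994). Fabp4, the fatty acid carrier of adipocytes and capillary endothelium, was at 655, 865 and 768 CPM after WT vehicle and 321 to 452 CPM in the others (0.95 ± 0.22, adjusted p = 0.105). Of 36 genes of fatty acid oxidation and PPAR targets, 5 had an unadjusted p under 0.05, 3 higher and 2 lower, a share near the 16% of all genes tested, and the median was -0.26, turning to 0.07 without WT DOX mouse 22. Among amino acid transporters, Slc3a2 was at 57.0, 98.5 and 82.0 CPM after WT DOX and 39.9 to 48.7 CPM in all 9 others (-0.87 ± 0.23, adjusted p = 0.136), while its partner Slc7a5 was at 2.76 to 3.06 CPM after WT vehicle and 3.77 to 6.79 CPM in the others (-1.003 ± 0.25, adjusted p = 0.128).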
